A study of Mus musculus with 6 samples.

Results

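The caspase genes Casp1, Casp2, Casp4, Casp6, Casp8, Casp9 and Casp12, with the adaptor gene Apaf1, were followed in maturing mouse erythroid cells depleted of Mi2β. The 8 genes were found in the array design by gene name, with all of their probes. They are measured by 9 of the 55681 probes (1 probe per gene, and 2 for Casp4), out of 34964 gene names on the array.

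Caspases are cysteine proteases that are made as inactive precursors. Initiator caspases are switched on when adaptor proteins bring them together, and executioner caspases are then cut by initiators and cleave many cell proteins. In the mitochondrial pathway, cytochrome c released from mitochondria assembles Apaf1 into the apoptosome, which activates Casp9, while death receptors at the cell surface activate Casp8. A separate, inflammatory group, of which Casp1 and Casp4 are members, processes cytokines and drives a lytic form of death in immune cells. In the red cell lineage caspases have been linked to both death and normal maturation, and GATA-1 itself is a known caspase substrate.

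Every sample came from the G1E-ER-GATA-1 line. These mouse erythroid progenitors lack endogenous GATA-1 and carry a GATA-1 and oestrogen receptor fusion that oestradiol switches on, so the findings concern 1 line. Control cells received a non-targeting siRNA and knockdown cells an siRNA against Mi2β, the nucleosome-remodelling ATPase of the NuRD complex, encoded by Chd4. In both groups siRNA was given at 0 h and 24 h, β-estradiol was added at 24 h and RNA was collected at 48 h, so that every sample had 24 h of active GATA-1. Each group had 3 samples, each on its own 1-colour Agilent array. Whether they were grown separately is not given in the labels, so a p-value here covers the spread among these arrays, which may be technical.

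The siRNA target was lower in every knockdown sample. The Chd4 probe (chromosome 6, 125080458 to 125080517, mm9) had background-subtracted signals of 22662, 23037 and 21115 in control and 10943, 9537 and 9417 in knockdown samples. Chd4 fell by 1.31 on the log2 scale (SE 0.10, adjusted p = 0.00161 by limma, and from 1.93e-05 to 0.027 over 18 alternative ways of processing the arrays). Of 11 erythroid markers all were well above background on all 6 arrays, including the globin, Alas2, Klf1 and Slc4a1 genes. Of these markers 3 rose and 3 fell by limma, where 4.99% of all genes rose and 4.56% fell. Epb42 (1.85), Alas2 (1.06) and Hbb-bt (0.81) rose, and Ahsp (-1.11), Slc4a1 (-1.04) and Trim10 (-0.65) fell. The summed level of all 11 was 1925 to 2037 on control and 2188 to 2434 on knockdown arrays. This sum weighs the brightest markers most, above all the globin genes, and does not describe each marker. The summed signal of 8 macrophage and monocyte markers, in multiples of the array's 75th percentile, was 17.0 to 21.8 on control arrays and 21.1 to 22.5 on knockdown arrays, with Lyz2 and Ccr2 not well above background on any array. For 6 megakaryocyte markers the sums were 30.9 to 36.7 and 9.67 to 13.0, with Ppbp well above background on none. For 6 mast cell markers they were 0.976 to 1.17 and 2.66 to 3.13, with Mcpt8 and Fcer1a well above background on none. Of the mast cell markers Hdc rose by 2.05, and Cpa3 (0.61) and Tpsb2 (0.23) did not pass by limma. Tpsab1 passed as higher, but was well above background on 0 control and 3 knockdown arrays, so it met the detection filter through the knockdown group. The sums were 2.71 to 4.11 and 3.1 to 3.53 for 6 neutrophil markers (S100a8 well above background on none), 3.37 to 3.69 and 3.73 to 5.17 for 6 lymphocyte markers, and 0.21 to 0.244 and 0.18 to 0.295 for 5 stromal markers (Col1a1, Pdgfra and Pdgfrb on none). The part of these shifts in the results below was not tested. Fewer cells of a type and less RNA per cell cannot be told apart in such bulk samples.

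Genes of the apoptotic machinery were detected and the inflammatory caspases were near background. Casp2, Casp6, Casp8, Casp9 and Apaf1 were well above background on all 6 arrays, whereas Casp1, Casp4 and Casp12 reached that level on 0, 1 and 2 arrays. The promoter windows of the members range widely in CpG content, and 4 of them are printed here to show that range: Casp6 and Casp8, the members that passed the test, Apaf1, which has the most CpG dinucleotides, and Casp12, which has 1. Each is the 250 bases before the start site of a RefSeq transcript (GRCm38.p6), read 5′ to 3′ on the gene's strand, with CpG in capitals.
Apaf1, chr10:91082744-91082993, minus strand: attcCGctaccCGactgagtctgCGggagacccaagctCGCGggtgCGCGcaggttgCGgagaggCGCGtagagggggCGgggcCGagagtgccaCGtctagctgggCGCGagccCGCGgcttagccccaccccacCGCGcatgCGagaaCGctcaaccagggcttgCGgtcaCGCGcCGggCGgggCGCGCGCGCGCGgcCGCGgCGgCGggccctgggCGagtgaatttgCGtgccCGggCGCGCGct
Casp6, chr3:129901165-129901414, plus strand: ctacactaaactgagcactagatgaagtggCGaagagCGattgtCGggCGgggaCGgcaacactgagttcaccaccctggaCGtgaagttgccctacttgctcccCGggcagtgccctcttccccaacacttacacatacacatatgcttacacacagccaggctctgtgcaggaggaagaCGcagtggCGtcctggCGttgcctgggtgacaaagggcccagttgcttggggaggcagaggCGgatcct
Casp8, chr1:58802252-58802501, plus strand: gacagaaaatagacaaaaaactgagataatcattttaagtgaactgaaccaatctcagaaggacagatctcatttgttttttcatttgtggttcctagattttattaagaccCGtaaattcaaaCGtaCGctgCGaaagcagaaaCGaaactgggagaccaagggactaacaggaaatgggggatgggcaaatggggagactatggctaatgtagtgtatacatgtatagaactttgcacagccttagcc
Casp12, chr9:5345226-5345475, plus strand: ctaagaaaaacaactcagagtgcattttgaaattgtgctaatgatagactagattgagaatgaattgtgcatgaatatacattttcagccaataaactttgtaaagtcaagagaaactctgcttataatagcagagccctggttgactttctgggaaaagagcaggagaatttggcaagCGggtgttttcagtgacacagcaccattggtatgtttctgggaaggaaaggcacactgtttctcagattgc

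All 8 members had a window in the RefSeq table, and Casp4 had 2. CpG counts in the 250 bases were 42 for Apaf1, 25 for Casp9, 17 for Casp2, 11 for Casp6 and 5 for Casp8. The weakly or not detected members had 3 (Casp4, in both windows), 1 (Casp12) and 1 (Casp1). Over all 32851 windows the median count was 6. Among genes of the array with a window, taking the first listed window of each, the median was 15 for 9919 genes well above background on all 6 arrays and 4 for 3451 genes well above background on none. Casp8, detected and dim, thus had a count close to that of undetected genes, and the other 4 detected members had counts of 11 or more. This is a description of these windows, without a test.

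**Figure D1:**
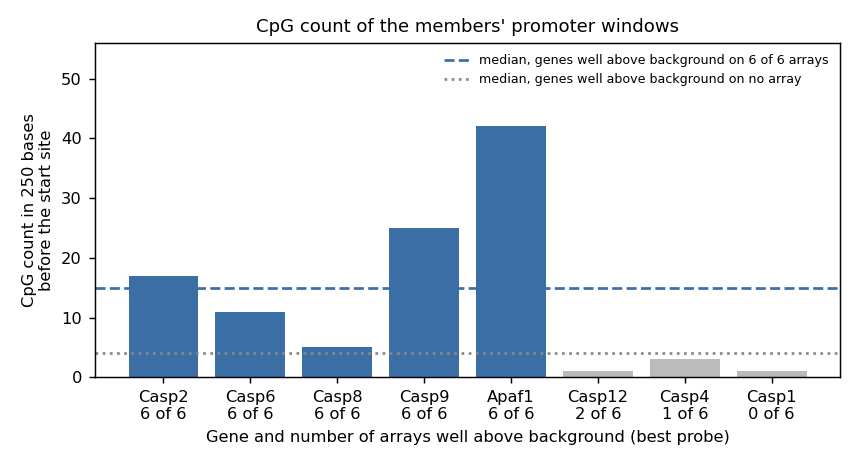
CpG count in the 250 bases before the start site (bars, vertical axis) for each member, ordered by the number of arrays on which its best probe was well above background. Blue bars are members detected on 6 of 6 arrays, from 5 (Casp8) to 42 (Apaf1), grey bars those detected on fewer, from 1 to 3, and the lines are the medians of array genes detected on all 6 arrays (15) and on none (4).

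Windows were also searched on both strands for the letters that GATA factors bind, GATAA or GATAG after an A or a T. They occurred in the windows of Casp8 (AGATAA, starting 227 bases before the start site), Casp9 (TGATAA on the opposite strand, 143 bases before), Casp4 (TGATAA, 135 or 146 bases before in its overlapping windows) and Casp12 (TGATAG, 209 bases before). The windows of Casp1, Casp2, Casp6 and Apaf1 had no match. Of all windows 26.5% hold at least 1 match.

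With Mi2β knocked down, Casp6 fell, Casp8 rose, and Casp2, Casp9 and Apaf1 did not pass the test. Values are log2 of the signal minus the array's 75th percentile, changes are knockdown minus control, and a gene passes at a Benjamini-Hochberg adjusted p under 0.05 over 22132 genes in the limma fit. Of the 5 members tested, 1 rose and 1 fell, where 4.99% of all genes rose and 4.56% fell, 9.56% in all. Control and knockdown arrays did not overlap for 3 of the 5, 2 lower and 1 higher. Of all genes 31.1% did not overlap, 18.4% lower and 12.7% higher. The change was below 0 for 4 of the 5, with a median of -0.37, whereas over all genes 54.5% were below 0 and the median was -0.03. With so few members these shares describe the genes and show nothing particular to the family.

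**Figure D2:**
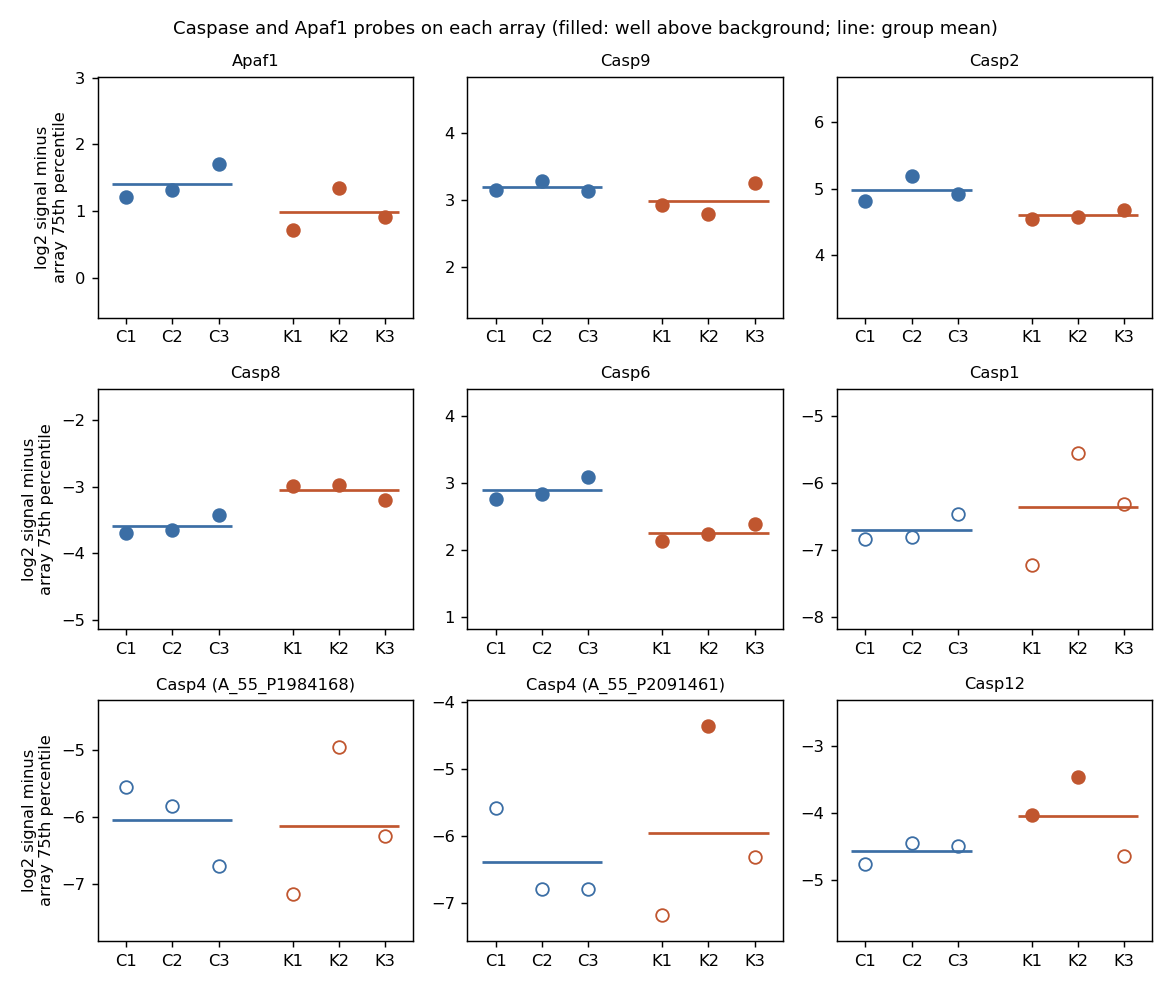
Log2 signal minus the array's 75th percentile (vertical axis, each panel spanning the same number of log2 units) for every probe of the members on control arrays C1 to C3 and knockdown arrays K1 to K3; filled points are well above background and lines are group means. Casp6 and Casp2 lie lower and Casp8 higher on all 3 knockdown arrays than on any control array, and most Casp1, Casp4 and Casp12 points are open.

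Apaf1 and Casp9, the core of the apoptosome, gave overlapping groups. The Apaf1 probe (chromosome 10, 90452580 to 90452639, mm9) had signals of 861, 894 and 1276 on control arrays 1 to 3 and of 727, 999.7 and 761 on knockdown arrays 1 to 3. Knockdown replicate 2 exceeded the lower controls, and the other knockdown arrays lay below all of them. The normalised level was 1.41 ± 0.26 (SD, n = 3) in control and 0.99 ± 0.32 (SD, n = 3) in knockdown cells, a difference of -0.42 (95% interval -0.94 to 0.09, adjusted p = 0.296 by limma). It passed in 0 of 18 alternatives (adjusted p from 0.0613 to 0.613). The difference was -0.28 without control replicate 3 and -0.24 within row 1 of the slide. It was -0.65 with array median scaling, which shifted every gene alike and moved the median of all genes from -0.03 to -0.27.

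Casp9, the initiator that Apaf1 activates, did not pass the test. Its probe (chromosome 4, 141371773 to 141371832, mm9) gave 3282, 3515 and 3438 in control and 3381, 2725 and 3856 in knockdown samples. By signal, knockdown replicate 2 was the lowest of the 6 arrays and knockdown replicate 3 the highest. Scaled levels were 3.19 ± 0.09 and 2.99 ± 0.24 (SD, n = 3 each), with a difference of -0.20 (95% interval -0.55 to 0.15, adjusted p = 0.479 by limma). A fall beyond 0.55 or a rise beyond 0.15 lies outside this interval. The difference was -0.10 without knockdown replicate 2, -0.33 without knockdown replicate 3, -0.13 with quantile normalization and -0.36 within row 1 of the slide. With array median scaling, which shifted all genes alike, it was -0.43. It passed in 0 of 18 alternatives (adjusted p from 0.163 to 0.745).

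Casp2, an initiator activated by the PIDD1 and CRADD adaptors and linked to DNA damage and errors of cell division, was lower in each knockdown sample without passing the test. Its probe (chromosome 6, 42232367 to 42232426, mm9) gave signals of 10438, 13135 and 11851 in control and 10351, 9407 and 10419 in knockdown samples. By signal the lowest control lay just above the highest knockdown array. After scaling the levels were 4.97 ± 0.19 and 4.60 ± 0.07 (SD, n = 3 each), a difference of -0.37 (SE 0.13, 95% interval -0.68 to -0.06, adjusted p = 0.143 by limma). With array weights it passed (-0.38, adjusted p = 0.0472), the only one of 18 alternatives under which it did (adjusted p from 0.0472 to 0.576). Replicates 1 and 2 of both groups lay in row 1 of the slide and replicates 3 in row 2. Blocking on slide row gave Casp2 an adjusted p of 0.198 by limma, and within row 1 the difference was -0.44 (adjusted p = 0.234).

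The 2 adaptor genes listed for Casp2 had differences of the same sign. Cradd was at -0.43 (SE 0.14, adjusted p = 0.127) and Pidd1 at -0.27 (SE 0.11, adjusted p = 0.20) by limma. Neither passed, while both had unadjusted p-values under 0.05 (0.0222 and 0.0463). Of all genes tested 23.9% had an unadjusted p under 0.05, and 2969 of the 22132 were lower with one.

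Casp8, the initiator of the death receptor pathway, rose from a level close to background. The probe (chromosome 1, 58901601 to 58901660, mm9) had signals of 28.7, 28.8 and 36.4 in control and 55.8, 49.95 and 44.1 in knockdown samples. All 3 knockdown arrays were brighter than any control, with knockdown replicate 3 nearest to them. The level went from -3.59 ± 0.14 to -3.06 ± 0.12 (SD, n = 3 each), a rise of 0.53 (SE 0.12, 1.44-fold, adjusted p = 0.0469 by limma). In the limma fit over all 31852 tested probes instead of genes, the same change had an adjusted p = 0.0557. Of those probes 8.19% were called, 4.31% up and 3.88% down, and the groups did not overlap for 29.9%, 12.4% higher and 17.5% lower in the knockdown.

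This rise rests on a dim spot. Before background subtraction the Casp8 spot averaged 62.5 to 70.5 on control and 77.0 to 91.1 on knockdown arrays, where negative control spots averaged 27.8 to 28.7 and 29.2 to 34.2. Those negative control spots had SDs of 3.5, 20.2 and 4.3 on control arrays 1 to 3. On knockdown arrays 1 to 3 their SDs were 16.4, 3.4 and 86.6. The share of probes well above background was 53.1% to 56.5% on control arrays and 61.3%, 74.0% and 48.5% on knockdown arrays 1 to 3, and the part of this shift in the result was not tested. With normexp background correction the Casp8 change was 0.11 (adjusted p = 0.479). That setting added an offset of 50 to every signal, which by construction shrinks log2 differences at signals this low. With array median scaling, under which the median of all genes was -0.27, the Casp8 change was 0.30 (SE 0.37, adjusted p = 0.756). The slide row as a block ended the call (0.53, adjusted p = 0.0818), within row 1 the change was 0.68 (adjusted p = 0.0727), row 2 held 1 array of each group, and leaving out any single array ended it too (adjusted p = 0.0513 to 0.183). Over 18 alternatives it stayed above 0 and passed in 4 (adjusted p from 0.00712 to 0.756). The filter, probe rule, block and intensity trend settings among them left the change at 0.53 by construction.

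Casp6, an executioner whose substrates include the nuclear lamin A, fell. Its probe (chromosome 3, 129616453 to 129616512, mm9) had signals of 2517, 2564 and 3338 in control samples and of 1958, 1857 and 2134 in knockdown samples. All knockdown arrays lay below all control arrays, and control replicate 3 was the brightest. From a normalised level of 2.90 ± 0.17 in control to 2.26 ± 0.13 in knockdown cells (SD, n = 3 each), Casp6 thus fell by 0.64 (SE 0.13, 1.55-fold lower, adjusted p = 0.035 by limma; the fit over probes gave an adjusted p = 0.0413).

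The Casp6 fall kept its direction while its call did not hold throughout. Over 18 alternatives the change stayed between -0.54 and -0.87, the latter with array median scaling, which shifted all genes alike. It passed in 7 of these alternatives (adjusted p from 0.00521 to 0.26). The filter, probe rule, block and intensity trend settings among them left the change at -0.64 by construction. With the slide row as a block it passed (adjusted p = 0.024), and within row 1 alone it was -0.61 (adjusted p = 0.0914). Leaving out any 1 of the 6 arrays ended the call (adjusted p = 0.0543 to 0.146).

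**Figure D3:**
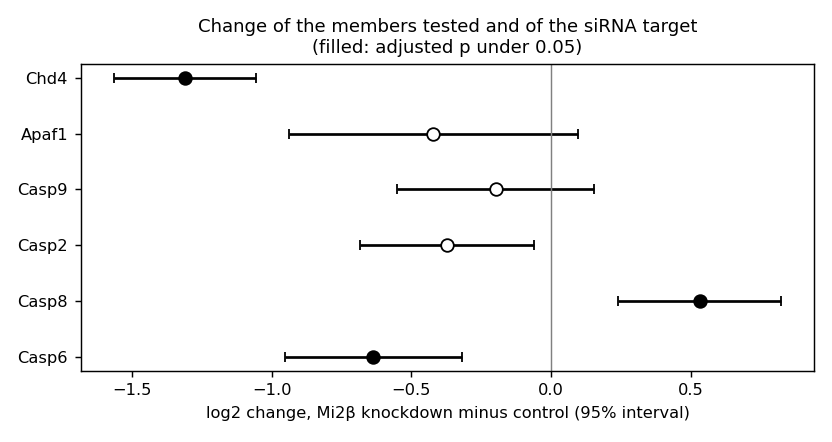
Log2 change, knockdown minus control (horizontal axis), with 95% intervals for the siRNA target Chd4 and the 5 members tested. Filled points passed the test: Chd4 at -1.31, Casp6 at -0.64 and Casp8 at 0.53, while the intervals of Apaf1 and Casp9 include 0 and that of Casp2 ends at -0.06.

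**Figure D4:**
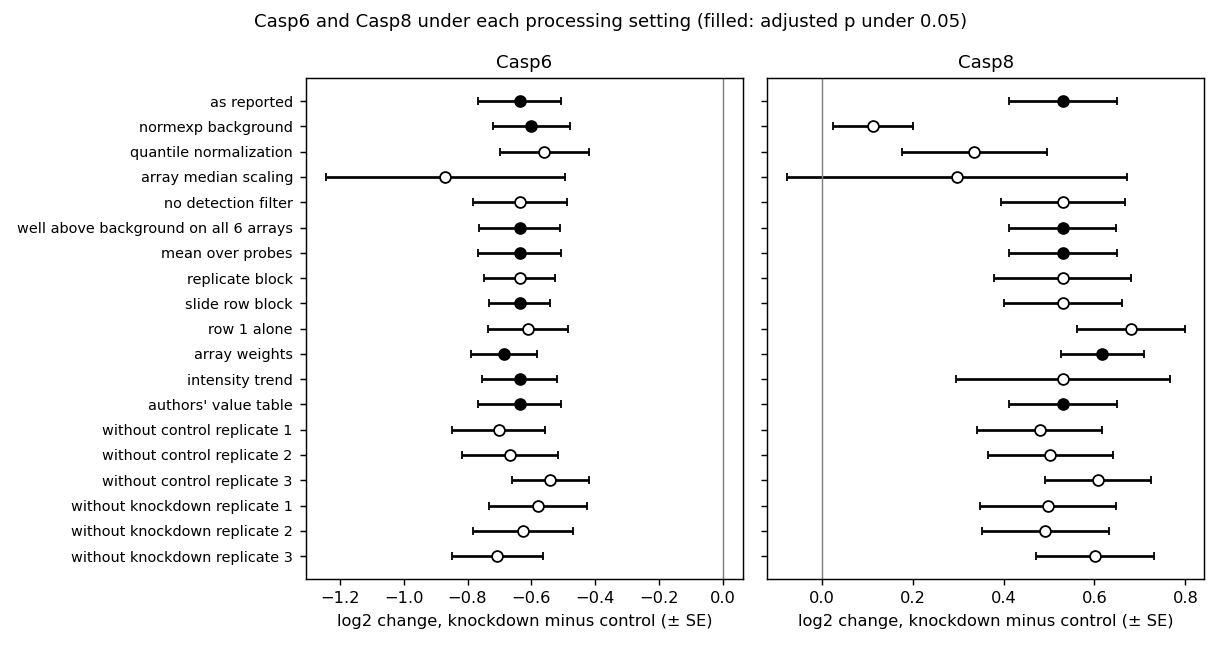
Log2 change with its standard error (horizontal axis) of Casp6 and Casp8 under the reported setting and each of 18 alternatives (vertical axis); filled points have an adjusted p under 0.05. Casp6 lies between -0.87 and -0.54 throughout, and Casp8 is at 0.11 with normexp, whose offset of 50 shrinks changes at dim spots.

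The inflammatory caspases and Casp12 had too little signal for a test. Casp1, which matures interleukin 1β, was well above background on 0 of 6 arrays (chromosome 9, 5307206 to 5307265, mm9), with signals of 2.95 to 8.43. Knockdown replicate 2 gave its highest value and knockdown replicate 1 its lowest, so the groups overlapped.

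Casp4, the mouse sensor of intracellular lipopolysaccharide also known as Casp11, is read by probes that overlap almost fully. They lie 5 bases apart and share 55 bases, and the first 30 bases of each are shown with the letters common to both stretches in capitals, because the pair is a repeat of 1 measurement.
A_55_P2091461: ccagcCTAAGCAACACAGTGGGATTCTGTT
A_55_P1984168: CTAAGCAACACAGTGGGATTCTGTTccata

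The first of them (chromosome 9, 5336658 to 5336717, mm9) had signals of 7.74, 3.24 and 3.53 in control and 3.04, 19.2 and 5.10 in knockdown samples. Only the 19.2 of knockdown replicate 2 was well above background. The second (5336663 to 5336722) gave 7.90, 6.30 and 3.71, then 3.12, 12.7 and 5.19, with 0 of 6 arrays well above background. Knockdown replicate 2 was the highest for both probes and for Casp1, and it is also the array with the largest share of probes well above background.

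Casp12, a caspase of the endoplasmic reticulum, was flagged well above background on 2 knockdown arrays and 0 control arrays. Its probe (chromosome 9, 5372975 to 5373034, mm9) had signals of 13.6, 16.5 and 17.4 in control and of 27.2, 35.7 and 16.2 in knockdown samples. It was well above background on knockdown replicates 1 and 2 and not on replicate 3, which lay among the controls. Replicates 1 and 2 also had the largest shares of all probes well above background (61.3% and 74.0%, against 48.5% on replicate 3). The control signals lay above the lowest signals well above background on their arrays (13.4, 13.1 and 14.5). The part of these array differences in the Casp12 flags was not tested. The groups overlapped, and no fold is given. The measured means were -4.57 ± 0.17 and -4.05 ± 0.59 (SD, n = 3 each).

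When the detection filter was dropped these genes could be fitted and none passed by limma. The differences were 0.52 (95% interval -0.28 to 1.32, adjusted p = 0.542) for Casp12, 0.34 (-0.76 to 1.44, adjusted p = 0.77) for Casp1 and -0.09 (-1.67 to 1.48, adjusted p = 0.956) for Casp4, read by the probe with the higher mean. Unadjusted p-values were 0.159, 0.471 and 0.888. Intervals this wide include rises of more than 2-fold for all 3 genes. Casp1, Casp4 and Casp12 are consecutive in the RefSeq gene order of chromosome 9, and the 2 annotated genes on either side of the trio are lncRNAs or pseudogenes that were not analysed here.

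Bcl2l1 and Bbc3 fell and Bax rose among the genes that act before the apoptosome. Of 10 measured BCL2 family genes, which set whether mitochondria release cytochrome c, 1 rose and 2 fell. Over all genes 4.99% rose and 4.56% fell. This short list and those below were not tested as sets, so their counts describe the named genes only. The survival gene Bcl2l1 went from signals of 26583 to 32386 on control arrays to 8363 to 11741 on knockdown arrays, a fall of 1.73 (SE 0.17, adjusted p = 0.00338). Bbc3, which encodes the pro-apoptotic PUMA, fell by 1.12 (SE 0.11, adjusted p = 0.00316), with signals of 3256 to 4038 and then 1807 to 1972. Bax, which forms the pore in the outer mitochondrial membrane, rose by 0.60 (SE 0.10, adjusted p = 0.0183). The falls passed in all 18 alternatives and the rise of Bax in 10 (adjusted p from 0.00202 to 0.718), and the family's median change was -0.04. The Bax call ended without control replicate 1 or without any knockdown replicate (adjusted p = 0.0527 to 0.0917).

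Of 15 measured partners and inhibitors of the apoptosome, 2 rose and 1 fell (4.99% and 4.56% of all genes). The median change was 0.04. Endog, a mitochondrial nuclease released during apoptosis, rose by 0.94 (SE 0.09, adjusted p = 0.00313). Its signals were 1542 to 1804 on control arrays and 3132 to 3823 on knockdown arrays. Only array median scaling ended its call (0.71, SE 0.37, adjusted p = 0.449). Under that setting Chd4 and the members tested had the same SE as Endog. Naip6, an inhibitor-of-apoptosis family gene with close copies that may share signal, rose by 0.58 (SE 0.10, adjusted p = 0.0227). Htra2, a mitochondrial protease that relieves caspase inhibition, fell by 0.56 (SE 0.12, adjusted p = 0.0375). The calls of Naip6 and Htra2 ended when any single array was left out. Cycs, the gene of cytochrome c, was at 0.42 (adjusted p = 0.139) and Xiap, which encodes a direct caspase inhibitor, at -0.55 (adjusted p = 0.0542), neither past the threshold, and both named after their values were seen.

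On the death receptor side Tnfsf10 rose and Ripk3 was bright in the knockdown samples, both from control signals near background. Of 13 measured receptors, ligands and adaptors, 2 (Tnfsf10 and Ripk3) passed as higher and 0 fell by limma (4.99% and 4.56% of all genes). Lower with an unadjusted p under 0.05 were 3, as were 2969 of all 22132 genes. The median change was -0.18. Ripk3, a kinase of necroptosis, the death pathway that Casp8 holds in check, had signals of 7.43, 4.8 and 18.2 in control and 214, 201 and 212 in knockdown samples. It was well above background on 1 of 3 control and 3 of 3 knockdown arrays, so it met the detection filter through the knockdown group. Control signals of 7.43 and 4.8 lay below the lowest signals well above background on those arrays (13.4 and 13.1), so the size of the fitted difference, 4.45 (SE 0.44, adjusted p = 0.00338), is not well determined. Tnfsf10, which encodes the death ligand TRAIL, had signals of 16.4 to 21.1 in control and 81.1 to 108 in knockdown samples. It rose by 2.17 (SE 0.14, adjusted p = 0.00096 by limma). Its control signals lay not far above the lowest signals well above background on those arrays (13.4, 13.1 and 14.5). With normexp, whose offset of 50 shrinks differences that involve low signals, the differences were 1.87 for Ripk3 and 0.81 for Tnfsf10. Tnfsf10 passed in all 18 alternatives. The adaptor gene Fadd, at -0.16 (adjusted p = 0.436), and the Casp8 inhibitor gene Cflar, at -0.18 (adjusted p = 0.377), did not pass and were named after their values were seen.

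Among caspase substrates and effectors Lmna fell and Xkr8 rose. Of 11 measured, 1 rose and 1 fell (4.99% and 4.56% of all genes), with a median change of -0.16. Lmna, which encodes lamins A and C, fell by 0.93 (SE 0.12, adjusted p = 0.0074), with signals of 55525 to 62448 in control and 30543 to 39066 in knockdown samples. It passed in 17 of 18 alternatives, the exception being the replicate block (adjusted p = 0.0612). Lmnb1, which encodes lamin B1, was at 0.04 (adjusted p = 0.877) with overlapping groups, and was named after its value was seen. Xkr8, a scramblase that caspase cleavage activates to expose phosphatidylserine, rose by 0.79 (SE 0.14, adjusted p = 0.0243). With normexp and its offset of 50, which shrinks changes at dim spots, that rise was 0.48. Leaving out control replicate 2 or any knockdown replicate ended the Xkr8 call (adjusted p = 0.0645 to 0.111).

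Il1b fell among the inflammasome genes, the activators and products of Casp1. Of 14 on the array 7 passed the detection filter, and of these 0 rose and 1 fell by limma (4.99% and 4.56% of all genes). Higher with an unadjusted p under 0.05 was 1, as were 2326 of all 22132 genes. The median change was -0.05. Il1b, the cytokine that Casp1 matures, fell by 1.23 (SE 0.11, adjusted p = 0.00264), from signals of 1099 to 1292 to signals of 514 to 579, and passed in all 18 alternatives. The sensor gene Nlrp1a was at 0.39 (adjusted p = 0.0992) and the adaptor gene Pycard at 0.13 (adjusted p = 0.564), named after their values were seen. Il1b thus fell in samples where Casp1 was not well above background.

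The genes nearest to Casp6 and Casp8 over the 6 arrays were found by Euclidean distance between centred log2 values among 13580 genes with a symbol. Ankzf1 (distance 0.105), Hoxc6 (0.121) and Kalrn (0.124) lay nearest to Casp6, with changes of -0.64, -0.54 and -0.66. Gpt (0.098), Asb5 (0.106) and Klf4 (0.138) lay nearest to Casp8, with changes of 0.57, 0.50 and 0.51. With 6 arrays in 2 groups such distances mostly follow the difference between the groups.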

How the data were processed

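The deposited spot intensities were made, per the file headers, with Agilent Feature Extraction 10.7.3.1. It subtracted the background within each array and did not normalise between arrays. The submitters' processing notes also name limma. The authors' value table holds the same linear intensities rounded to 0.01, uncentred, with medians of 16.95 to 36.93 per array. Probe coordinates are mm9, per the file headers, and exon positions of the probes were not analysed here. Array number, 3 per group, limits the precision.

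After removal of control and outlier-flagged spots, spots of a probe were averaged, giving 55681 probes. Each array's 75th percentile was subtracted from log2 signals. Of 31894 probes well above background on 3 or more of the 6 arrays, 42 without a value on every array after flagging were left out. The other 31852 were kept, and the probe with the highest mean stood for its gene (22132 genes). Names were updated through RefSeq accessions (27509 of 29150 matched). Groups were compared with limma 3.58.1 in R 4.3.3 (lmFit, eBayes, two-sided, Benjamini-Hochberg adjustment), and the fit was tested on simulated data.

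The members and gene lists were chosen with earlier results of these data known. Named are Chd4, the members, up to 4 genes past the threshold from each list (apoptosome partners and inhibitors, substrates and effectors, death receptors, Casp2 adaptors, inflammasome, BCL2 family), the nearest genes to the members with the lowest adjusted p, and chromosome 9 neighbours. The listed aliases Lrdd, Dfna5 and Icad were taken under their current symbols, and Cad, meant as an alias of Dffb, was left out because it matches another gene. Some further caspases are not reported here. The alternatives changed background correction (normexp with an offset of 50), scaling, filter, probe rule, blocks, variance model, source table and arrays.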

Additional observations from a re-analysis of the deposited data

How the results depend on the processing

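All 5 members tested kept their sign under all 18 alternatives. For these members, with 1 probe each, the filter, probe rule, block and intensity trend settings left the change as it was. Those settings could therefore not alter a sign, and the rounded source table hardly altered the values. The 2 calls among them became 1 with normexp, 1 with the slide row block and 1 with an intensity trend. They became 0 by limma with quantile normalization (2 at an unadjusted p under 0.05), array median scaling (1), no detection filter (3) and row 1 alone (2). Array median scaling shifted the change of every gene by the same amount and gave all 5 members the same SE of 0.37. Without each array in turn the count was 0 to 0, with 2 to 4 at an unadjusted p under 0.05. In the fit over probes 1 member probe passed, and 0 by limma with no detection filter (2 at an unadjusted p under 0.05).

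Over all genes 2115 of 22132 changed (9.56%). The count was 831 with array median scaling, 993 with no detection filter, 720 in row 1 alone, 4729 with array weights, 3305 with an intensity trend, and 813 to 1579 with single arrays left out. Of the 58 measured genes of the pathway lists 11 changed. That count was 20 with normexp, 17 with quantile normalization, 6 with array median scaling, 7 with no detection filter, 7 in row 1 alone, 22 with array weights, 21 with an intensity trend, and 7 to 9 with single arrays left out.

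Deviations of same-numbered arrays correlated at 0.21, -0.32 and 0.13 across genes, and those of differently numbered arrays at -0.41 to 0.32. With 3 arrays per group these values cannot settle whether replicate numbers pair the samples. With the replicate block 685 genes and 7 pathway genes passed, and 0 members did by limma (2 had an unadjusted p under 0.05), Casp6 with an adjusted p = 0.0788 and Casp8 with 0.18. The cause of these differences was not tested. Signals near background limit Casp1, Casp4, Casp8 and Casp12, and in the control samples Ripk3 and Tnfsf10.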
